A study of Arabidopsis thaliana with 8 samples.

Results

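The contrast described here sets seedlings that overexpress a stabilised SPEECHLESS and also carry the basl-2 allele against seedlings that overexpress it alone. It was chosen by genotype label and uses 6 of the 8 libraries of the series: 3 of 35S:SPCHΔ49, called SPCHΔ49 here, and 3 of 35S:SPCHΔ49 in basl-2, called SPCHΔ49 basl-2. All libraries came from whole seedlings of Arabidopsis thaliana aged 12 days, with no treatment. Both groups share the overexpression of SPCHΔ49, a shortened SPCH that is less open to phosphorylation by MAP kinases and so to the turnover that follows it. The 35S promoter that drives it is active in most plant cells. What separates the groups is the basl-2 allele, and any difference between the lines in the insertion or activity of the transgene, since the labels do not say whether both carry the same insertion. The 2 wild-type (WT) libraries stayed out of the contrast, and their levels are given only for scale. Of 18855 genes listed, 17763 reached a signal of 1 in at least 3 of the 6 libraries and were tested.

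SPCH is the basic helix-loop-helix factor that starts the stomatal lineage, in which epidermal precursor cells divide asymmetrically before a guard cell pair forms. It acts as a dimer with SCRM (ICE1) or SCRM2, and its targets include genes that feed back on the lineage, such as the peptide EPF2 and the receptor-like protein TMM. BASL is a polarity protein of those divisions, placed at one side of the cell cortex, where it gathers the YODA MAP kinase cascade that lowers SPCH in one daughter cell.

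Values are the deposited signal per gene, which the authors named TPM and which takes gene length into account. Their totals lay between 852203 and 1075376 per library, so they are not read numbers and the depth is unknown. Fold changes are SPCHΔ49 basl-2 against SPCHΔ49 of log2(signal + 1), a scale that shrinks differences of weakly expressed genes. A gene is said to rise or fall where limma gave an adjusted p under 0.05 with Benjamini-Hochberg adjustment over all genes tested. Separate growth of the replicates is not stated in the labels, and p-values then cover only the spread between these libraries. Root markers were low in both groups beside WT, although whole seedlings are labelled. The summed signal of 28 root markers, 24 of them listed, was 451 in each WT library, 48.6 to 63.6 in SPCHΔ49 and 50.6 to 61.6 in SPCHΔ49 basl-2. The Casparian strip gene CASP5 and the root hair expansin EXPA18 were listed at 0 in all 6 libraries, and a listed 0 can be a failed estimate. Of the 24 listed, 5 to 11 were at 0 in any one of the 6 libraries. The summed root signal was thus low and alike in both groups. The 7 root markers tested had log2 fold changes between -0.56 and 1.8, and 0 passed. In bulk tissue, fewer cells of a type and less RNA per cell cannot be told apart.

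SPCH (AT5G53210, chromosome 5) had a signal of 2628, 2357 and 2488 in the SPCHΔ49 libraries and of 397, 338 and 487 in those of SPCHΔ49 basl-2, beside 8.20 and 5.65 in WT. The groups did not overlap, and every SPCHΔ49 basl-2 library stayed far above WT. SPCH was thus 6.12-fold lower by the ratio of means, with a log2 fold change of -2.62 (SE 0.16, 95% interval -3.01 to -2.24, adjusted p = 0.0063). The overexpressed gene itself therefore differed between the groups, and its part in the other differences was not tested. Transcripts of the transgene and of the endogenous gene are counted in the same value. BASL (AT5G60880, chromosome 5) had 59.7, 58.1 and 35.3 in SPCHΔ49, 2.1, 3.23 and 2.90 in SPCHΔ49 basl-2, and 3.34 and 3.52 in WT. It was high only in SPCHΔ49 and close to WT in SPCHΔ49 basl-2, and fell by 3.77 on the log2 scale (SE 0.24, 95% interval -4.35 to -3.2, adjusted p = 0.00649). Transcript may still be made from a mutant allele, so this level does not test the label. Without SPCHΔ49 replicate 2 the adjusted p was 0.0636 for both genes, and without SPCHΔ49 basl-2 replicate 1 it was 0.0561 for both. Over the 6 fits that leave out 1 library, the log2 fold change ranged from -2.76 to -2.5 for SPCH and from -4.01 to -3.64 for BASL.

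The genes on either side of SPCH and of BASL on chromosome 5 were read as a check of the regions. Of the 16 nearest listed genes, 4 on each side of each locus, 15 were tested and 1 fell, where 1.81% of all genes fell. It was AT5G60930, with 6.85, 7.64 and 8.54 in SPCHΔ49 against 2.85, 1.94 and 3.58 (log2 fold change -1.21, adjusted p = 0.0323). Its adjusted p was 0.0838, 0.175 and 0.108 without SPCHΔ49 replicates 1, 2 and 3, and 0.137 and 0.0668 without SPCHΔ49 basl-2 replicates 1 and 2. It is the listed gene 3 places after BASL, and the reference annotates it as a P-loop nucleoside triphosphate hydrolase. The immediate neighbours did not pass. TRY, a single-repeat MYB before SPCH, had -0.55 (adjusted p = 0.219), and AT5G53220 after SPCH had -0.17 (adjusted p = 0.462). RUG3 before BASL had -0.46 (adjusted p = 0.137), and MYB34, a regulator of indole glucosinolates after BASL, had -0.71 (adjusted p = 0.521). Of these, TRY and RUG3 lay wholly lower in SPCHΔ49 basl-2, as did 15.5% of all genes.

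In all, 503 of 17763 genes changed, 2.83% of those tested, of which 182 rose (1.02%) and 321 fell (1.81%). At least 2-fold changes were 110 rises and 184 falls, 1.66% of the genes tested. The genes that fell had a median of the group means of 13.4 in SPCHΔ49, 5.67 in SPCHΔ49 basl-2 and 6.99 in WT. In 277 of these 321 genes the SPCHΔ49 mean lay above the WT mean, and in 233 the SPCHΔ49 basl-2 mean lay below it. The genes that rose had medians of 25.4, 61.0 and 30.9 in the same order. Of these 182, 108 had a SPCHΔ49 mean below the WT mean, and 139 a SPCHΔ49 basl-2 mean above it. The number of calls depended on which library was left out. It was 44 without SPCHΔ49 replicate 1, 0 without SPCHΔ49 replicate 2 and 130 without SPCHΔ49 replicate 3, and 6, 57 and 504 without SPCHΔ49 basl-2 replicates 1, 2 and 3. Where it was 0 in limma, 2234 genes had an unadjusted p under 0.05, against 3543 with all 6 libraries. The size of the log2 fold changes of the 503 genes moved less. Its median ratio to the fit with all 6 libraries lay between 0.969 and 1.04 in these fits. Each of them shares every library but the left-out one with the full fit, so a ratio near 1 is no independent support.

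Libraries also differed within the groups. Component 1 of the 6 libraries, with 56.3% of the variance, ran from -20.9 to 51.4 within SPCHΔ49 and from -62.3 to 28.0 within SPCHΔ49 basl-2. Component 2, with 27.5%, had scores from -36.1 to -9.82 in SPCHΔ49 and from 8.41 to 35.1 in SPCHΔ49 basl-2, so the genotypes separated there. Defence genes spread widely within each group. The mean log2 level of 17 salicylic acid genes was 2.78, 4.18 and 4.56 in SPCHΔ49 replicates 1 to 3 and 3.54, 2.07 and 4.5 in those of SPCHΔ49 basl-2.

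**Figure D1:**
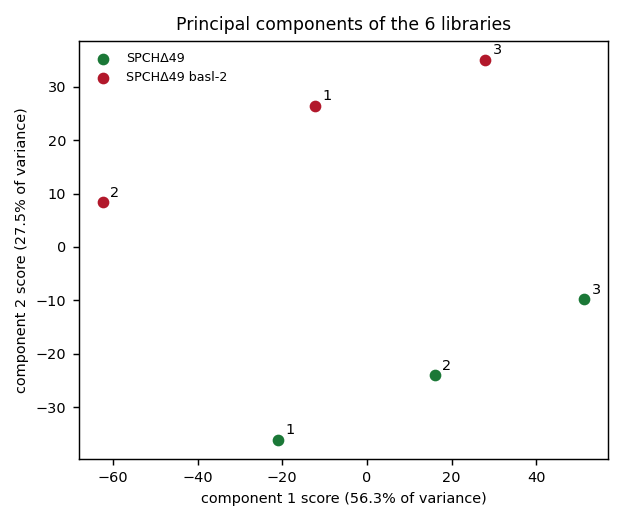
Scores of the 6 libraries on principal components 1 (horizontal) and 2 (vertical) of log2(signal + 1), one point per library with its replicate number, coloured by genotype. The genotypes lie apart on component 2, with 27.5% of the variance, while both spread widely along component 1, with 56.3%.

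Regulators of the stomatal lineage fell or did not pass, and none rose. Of 44 listed for this purpose 41 were in the table and tested, and 12 of them fell and 0 rose, and 29 did not pass. Over all genes tested 1.81% fell. This list and those that follow were chosen with earlier results of these data known. Their counts therefore describe these libraries and are not independent support. All SPCHΔ49 basl-2 libraries lay below all SPCHΔ49 libraries for 17 of the 41, as for 15.5% of all genes, and above them for 3. The median log2 fold change was -0.26, against -0.03 over all genes tested. SPCH and BASL are 2 of the 12, and were the genes of the design. In 11 of the 12, the exception being SERK1, the SPCHΔ49 mean was above the WT mean, and in 5 of the 12 the SPCHΔ49 basl-2 mean was below it.

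Among the transcription factors, SCRM (AT3G26744), the dimer partner of SPCH, had 251, 217 and 164 in SPCHΔ49 against 68.3, 73.5 and 57.3 in SPCHΔ49 basl-2, with 43.2 and 45.8 in WT. It was lower in every SPCHΔ49 basl-2 library, by 1.64 on the log2 scale (log2 fold change -1.64, SE 0.18, adjusted p = 0.0171). SCRM2 (AT1G12860), the second partner, had 94.0, 79.0 and 52.5 against 30.4, 32.2 and 21.6, did not overlap, and missed the threshold narrowly (-1.37, adjusted p = 0.0505). MUTE, which ends the asymmetric divisions, had 3.17, 3.17 and 3.35 against 2.18, 1.40 and 2.15 (-0.55, adjusted p = 0.117). FAMA, which acts last, in guard cell formation, had 50.7, 46.9 and 46.4 against 59.6, 67.6 and 54.7 and did not pass (0.33, adjusted p = 0.166). SPCH and SCRM thus fell, while MUTE, FAMA and the guard cell factor SCAP1 (0.34, adjusted p = 0.225) did not pass.

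POLAR (AT4G31805), a polarity protein that acts with BASL, had 29.1, 28.5 and 28.0 in SPCHΔ49 against 5.90, 5.79 and 5.07 in SPCHΔ49 basl-2, with 6.38 and 7.61 in WT (log2 fold change -2.17, SE 0.09, adjusted p = 0.00305). The libraries of each group were close together and the SPCHΔ49 basl-2 level was near that of WT. The BRX family members BRX, BRXL2, BRXL3 and BRXL4, which share the polarity domain with BASL, had log2 fold changes of 0.29, -0.43, -0.48 and -0.26 and did not pass. Of the 8 genes of the YODA MAP kinase cascade and the BSL phosphatases, which act downstream of the receptors, 0 passed and the median was -0.01. Their log2 fold changes lay between -0.21 and 0.22.

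All 8 receptors and co-receptors tested had a log2 fold change below 0, as did 53.6% of all genes. Of these 8, 4 fell, where 1.81% of all genes fell. TMM (AT1G80080), which forms receptor complexes with the ERECTA family in stomatal patterning, had 522, 406 and 297 in SPCHΔ49 against 65.0, 53.3 and 48.3 in SPCHΔ49 basl-2, with 14.1 and 14.4 in WT. The groups were far apart, 7.35-fold by the ratio of means, and TMM remained above WT in SPCHΔ49 basl-2 (-2.83, SE 0.23, adjusted p = 0.00881). ERL1 (AT5G62230), an ERECTA-family receptor kinase, had 8.80, 9.09 and 8.70 against 1.93, 1.91 and 2.35 (-1.69, adjusted p = 0.00672), and ERL2 (AT5G07180) 20.7, 18.5 and 14.6 against 5.93, 5.66 and 4.98 (-1.53, adjusted p = 0.0146). Both were near their WT levels of 1.46 and 2.1 and of 5.32 and 6.38. ERECTA itself had 29.0, 29.8 and 24.2 against 22.4, 18.6 and 19.1 and did not pass (-0.44, adjusted p = 0.124). The co-receptor kinase SERK1 fell by 0.62 on the log2 scale (adjusted p = 0.0463), while SERK2, BAK1 and SERK4 had -0.22, -0.21 and -0.24 and did not pass.

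Of the peptides and proteases, EPF2 (AT1G34245), a secreted peptide that limits entry into the lineage, fell from 32.2, 44.6 and 36.6 to 10.9, 7.01 and 11.3 (-1.87, SE 0.21, adjusted p = 0.0171). EPF1, EPFL9 (STOMAGEN), EPFL5, EPFL6 and the protease genes SDD1 and CRSP did not pass, with log2 fold changes between -0.80 and 0.46. The late factors included a pair of CXC-domain proteins that control progression through the lineage, SOL1 (AT3G22760) and TCX2 (AT4G14770, SOL2). SOL1 had 47.1, 41.0 and 30.3 against 8.68, 6.53 and 7.83 (-2.21, adjusted p = 0.00989), and TCX2 38, 32.3 and 23.1 against 5.51, 5.63 and 5.79 (-2.25, adjusted p = 0.00884). In SPCHΔ49 basl-2 both stood near their WT levels. Their relative TSO1 did not pass (-0.20). The homeodomain factor HDG2 (AT1G05230) fell by 0.99 on the log2 scale from 43.9, 44.4 and 42.0 to 22.0, 21.6 and 20.3 (adjusted p = 0.00884), and FLP and MYB88, which act at the last division, had -0.18 each. SOL1, POLAR, ERL1, SERK1, HDG2 and TCX2 overlap another annotated gene, as do ETFQO, MCCA, BCAT2, THA1, CYCD3;1, CYCD3;2, SMR1, SWEET1 and ERDL6 among the genes named later. So do RUG3, SERK2, BAK1, TSO1, FLP, BES1 and CDC6A, which did not pass. Whether counting used strand is not stated, so part of their signal is uncertain.

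Of the 12 lineage genes that fell, 0 remained past the threshold without SPCHΔ49 replicate 2 (adjusted p 0.0624 to 0.227) and 1 without SPCHΔ49 basl-2 replicate 1 (0.0483 to 0.189). Without SPCHΔ49 replicates 1 and 3 the numbers were 7 and 10, and without SPCHΔ49 basl-2 replicates 2 and 3 they were 9 and 11. After quantile normalization 11 of them passed, and SERK1 did not (adjusted p = 0.126).

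**Figure D2:**
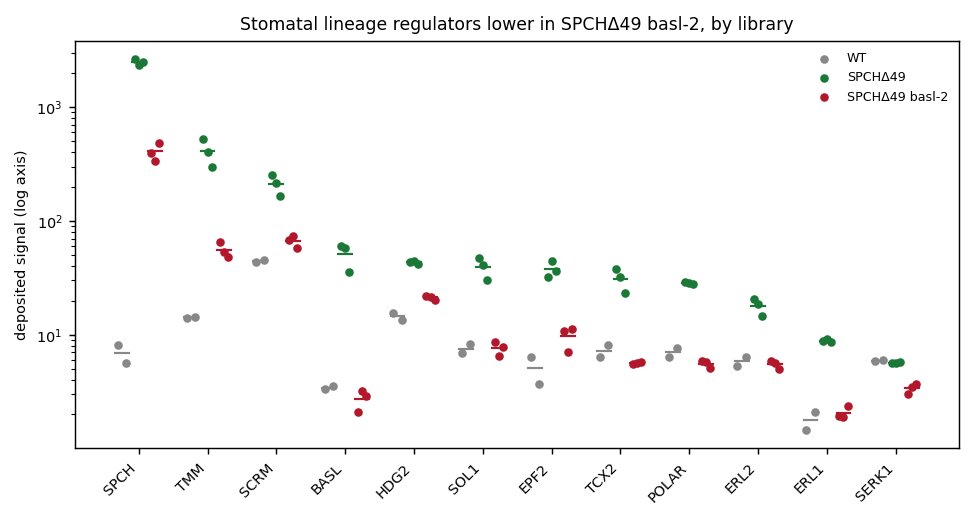
Deposited signal (vertical, log axis) of the 12 stomatal lineage genes that fell, one point per library and a bar at each group's mean, for WT (n = 2), SPCHΔ49 (n = 3) and SPCHΔ49 basl-2 (n = 3). All SPCHΔ49 basl-2 points lie below all SPCHΔ49 points for each gene, while SPCH and TMM stay well above WT and POLAR, ERL2 and TCX2 lie close to it.

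Genes of guard cell function, the product of the lineage, did not follow. Of 29 tested 0 rose and 1 fell, a share near the 1.81% of all genes that fell. The median log2 fold change was 0.17, and it was 0.03 without SPCHΔ49 replicate 2, 0.01 without SPCHΔ49 basl-2 replicate 3 and 0.05 after quantile normalization. The gene that fell was GHR1, a receptor-like protein of stomatal closure, from 8.51, 7.39 and 8.16 to 3.32, 4.25 and 4.45 (-0.86, adjusted p = 0.0311). Epidermal HD-ZIP IV factors and markers gave 2 falls of 9 tested, where 1.81% of all genes fell, as for the trichome and leaf lists that follow: HDG5 (-1.26, adjusted p = 0.0174) and PDF1, a protodermal factor, from 640, 590 and 472 to 291, 264 and 240 (-1.09, adjusted p = 0.0243). ETC3, a single-repeat MYB that inhibits trichome and root hair fates, was the 1 that fell of 11 trichome genes. It had 182, 206 and 149 in SPCHΔ49 against 24.9, 24.5 and 35.8 in SPCHΔ49 basl-2 (-2.62, adjusted p = 0.00745). Of 15 meristem and leaf growth genes AS2 and GRF2 fell, by 1.04 and 0.90 on the log2 scale (adjusted p = 0.0243 and 0.0282). Without SPCHΔ49 replicate 2 none of GHR1, HDG5, PDF1, ETC3, AS2 and GRF2 passed (adjusted p 0.0713 to 0.158), nor without SPCHΔ49 basl-2 replicate 1 (0.0561 to 0.13). Of the 6, ETC3 alone passed without SPCHΔ49 replicate 1 (0.0465) or SPCHΔ49 basl-2 replicate 2 (0.0357). Without SPCHΔ49 replicate 3, PDF1, ETC3 and GRF2 passed, and without SPCHΔ49 basl-2 replicate 3 only GRF2 did not (0.054). After quantile normalization GHR1 and GRF2 had 0.0607 and 0.0679. In the 18 vascular, 21 cuticle and 7 root genes tested, 0 passed.

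Genes of mitosis and cytokinesis were lower in SPCHΔ49 basl-2. Of 26 listed for this purpose 25 were tested, and 14 fell and 0 rose, where 1.81% of all genes fell. This list too was chosen with earlier results known, so its counts are only descriptive. All SPCHΔ49 basl-2 libraries lay below all SPCHΔ49 libraries for 24 of 25, as for 15.5% of all genes, the exception being CDKA;1, the main cyclin-dependent kinase, with a log2 fold change of 0.18. The median was -1.12, against -0.03 over all genes tested. The mean log2 level of these genes was 3.24, 3.48 and 3.58 in SPCHΔ49, 2.28, 2.22 and 2.57 in SPCHΔ49 basl-2, and 2.89 and 3.29 in WT. For all 14 the SPCHΔ49 basl-2 mean lay below the WT mean, while the SPCHΔ49 mean lay above it for 13.

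CYCB2;3 (AT1G20610), a B-type mitotic cyclin, had 11.6, 12.1 and 11.5 against 5.6, 5.41 and 4.85, with a log2 fold change of -1.02 (SE 0.10, adjusted p = 0.014). CDC20.2 (AT4G33260), an activator of the anaphase-promoting complex, had 17.3, 22.4 and 23.8 against 6.09, 5.40 and 7.85 (-1.57, SE 0.18, adjusted p = 0.0171). CYCA1;1 (AT1G44110), an A-type cyclin, had 9.43, 10.5 and 9.95 against 2.79, 2.71 and 4.30 (-1.38, SE 0.17, adjusted p = 0.0188). The groups did not overlap for these 3 genes, as for all 503 genes that changed. CDC20.1 and CDC20.2 are near-identical neighbours between which reads may be divided uncertainly. The other falls were CDC20.1, CYCA2;3, CYCB1;1, CYCB1;2, CDKB1;1, CDKB1;2, CDKB2;1, KN, AUR1, PLE and TPX2, with log2 fold changes between -1.58 and -0.82. KN (KNOLLE) is a syntaxin of the cell plate, PLE a microtubule-bundling protein of the division machinery, AUR1 an Aurora kinase and TPX2 a spindle protein.

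Promoters of the 3 mitotic genes that fell and that hold most matches to the sequence AACGG are shown, since this is the core of the mitosis-specific activator element that MYB3R factors bind. They are the 250 bases before each gene's start in RefSeq TAIR10.1, minus strand, written in the direction of transcription (CYCB1;2 at chr5:1861704-1861953, CYCB2;3 at chr1:7137829-7138078, CYCB1;1 at chr4:17624309-17624558). Capitals mark AACGG, or CCGTT where it is on the other strand.
CYCB1;2: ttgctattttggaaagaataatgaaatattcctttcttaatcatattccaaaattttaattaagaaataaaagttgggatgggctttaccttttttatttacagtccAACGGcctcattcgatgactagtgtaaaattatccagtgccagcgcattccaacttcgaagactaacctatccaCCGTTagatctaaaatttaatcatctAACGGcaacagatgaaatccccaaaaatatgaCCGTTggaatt
CYCB2;3: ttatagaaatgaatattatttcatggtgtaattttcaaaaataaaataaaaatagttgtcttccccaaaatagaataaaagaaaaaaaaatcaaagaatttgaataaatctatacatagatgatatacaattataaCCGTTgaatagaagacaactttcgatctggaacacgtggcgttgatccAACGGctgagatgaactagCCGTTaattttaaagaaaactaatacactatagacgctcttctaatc
CYCB1;1: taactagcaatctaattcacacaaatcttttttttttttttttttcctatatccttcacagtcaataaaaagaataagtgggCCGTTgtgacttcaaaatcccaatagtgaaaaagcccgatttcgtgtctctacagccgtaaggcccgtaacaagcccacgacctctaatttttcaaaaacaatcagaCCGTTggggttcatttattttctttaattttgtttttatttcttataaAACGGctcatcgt
CYCB1;2 held 4 matches, and CYCB2;3 and CYCB1;1 held 3 each. Over both strands AACGG occurred in 14 of 25 such windows of the mitosis list (56.0%), in 22.0% of 17665 windows of all genes tested, in 37.4% of those of the genes that fell and in 16.5% of those of the genes that rose. Of the 14 mitosis genes that fell 8 held a match. A match is a run of letters and says nothing of whether a factor binds there. The 6-letter G-box CACGTG, which bHLH factors recognise, was in 7.45% of all windows, 7.17% of those of the genes that fell, 11.5% of those of the genes that rose and 0 of the 41 of the lineage.

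Upstream of mitosis, 2 of 8 D-type cyclins fell: CYCD3;1, from 47.4, 39.6 and 33.3 to 14.1, 16.0 and 13.7 (-1.39, adjusted p = 0.0169), and CYCD3;2 (-1.02, adjusted p = 0.047). Of 14 CDK inhibitors tested, 3 fell and 1 rose. Set beside both lists, 1.81% of all genes tested fell and 1.02% rose. SMR8 fell from 30.4, 33.4 and 25.8 to 11.3, 7.38 and 12.7 (-1.45, adjusted p = 0.0263), with KRP7 at -0.86 and SMR4 at -1.07. SMR1, a SIAMESE relative that promotes endoreduplication, rose from 21.3, 18.4 and 14.8 to 41.3, 34.4 and 31.3 (0.94, adjusted p = 0.0456). After quantile normalization SMR1, KRP7 and SMR4 did not pass (adjusted p = 0.0572, 0.0599 and 0.111). None of these 6 cyclin and inhibitor genes passed without SPCHΔ49 replicate 1 or 2 or SPCHΔ49 basl-2 replicate 1 or 2. The cyclins passed without SPCHΔ49 replicate 3, and CYCD3;1, SMR8 and KRP7 without SPCHΔ49 basl-2 replicate 3. Of 19 replication and E2F-RBR genes 0 passed in limma, while 13 lay wholly lower, as did 15.5% of all genes, and the median was -0.53. The largest difference there was higher, CDC6A with 1.01 (adjusted p = 0.0944).

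The mitosis calls depended on which library was left out, as the others did. Of the 14 falls, 1, 0 and 2 remained without SPCHΔ49 replicates 1, 2 and 3, and 0, 0 and 14 without SPCHΔ49 basl-2 replicates 1, 2 and 3, with adjusted p of up to 0.206. The median stayed between -1.21 and -1.04 in these fits.

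Genes that rise when sugar is short, among them enzymes that break down branched-chain amino acids, were higher in SPCHΔ49 basl-2. Of 15 tested 10 rose and 0 fell, against 1.02% of all genes, and 12 lay wholly higher, against 11.2%. As for the other lists, the members were chosen with earlier results of these data known. Their median log2 fold change was 1.49. The mean log2 level was 6.47, 6.64 and 6.83 in SPCHΔ49, 8.19, 7.97 and 7.93 in SPCHΔ49 basl-2, and 5.8 and 6.0 in WT. Both groups' means lay above the WT mean for all 10 that rose.

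ETFQO (AT2G43400), which passes electrons from branched-chain amino acid breakdown to the respiratory chain, had 32.0, 33.5 and 35.8 in SPCHΔ49 against 90.7, 86.0 and 80.4 in SPCHΔ49 basl-2 (log2 fold change 1.32, SE 0.09, adjusted p = 0.00672). MCCA (AT1G03090) and MCCB (AT4G34030), the subunits of the leucine-degrading methylcrotonyl-CoA carboxylase, rose together. MCCA had 108, 101 and 112 against 404, 401 and 305 (1.77, adjusted p = 0.00778), and MCCB 81.2, 84.1 and 85.9 against 215, 195 and 181 (1.22, adjusted p = 0.00778). BCAT2 (AT1G10070), the transaminase that starts this breakdown, had 23.0, 42.3 and 67.5 against 313, 306 and 211 (2.72, SE 0.39, adjusted p = 0.0263). The groups did not overlap, though SPCHΔ49 itself spread widely. The other rises were SEN1, ASN1, DIN4, DIN10, IVD and ERD5, with log2 fold changes of 1.97, 1.95, 1.22, 1.70, 1.69 and 1.70. ASN1, an asparagine synthetase repressed by sugar and light, had 686, 498 and 506 against 2463, 2494 and 1625. SEN1 had 1062, 889 and 708 against 4247, 4120 and 2327.

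Of these 10 rises 3, 0 and 5 remained without SPCHΔ49 replicates 1, 2 and 3, and 0, 3 and 10 without SPCHΔ49 basl-2 replicates 1, 2 and 3, with adjusted p of up to 0.159. The median lay between 1.28 and 1.66 in these fits.

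**Figure D3:**
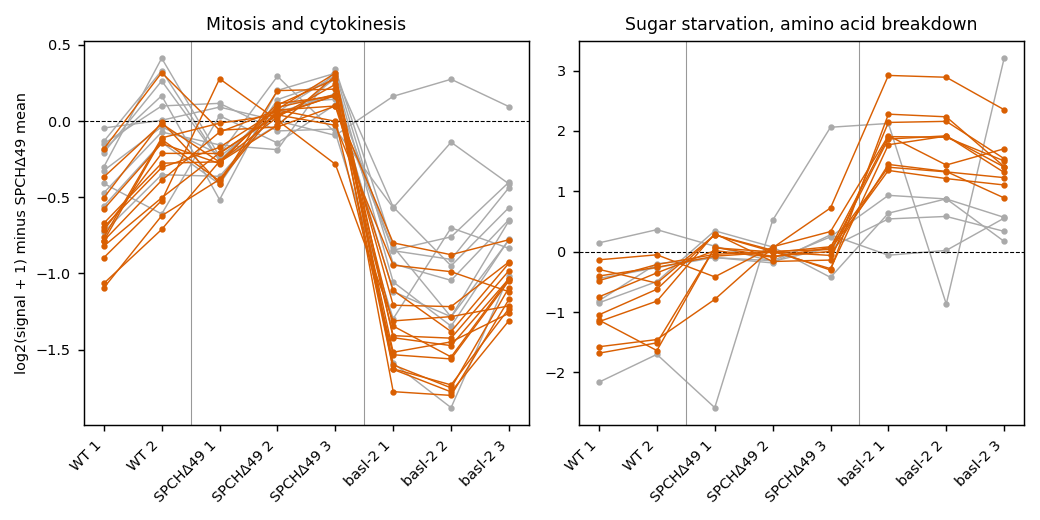
Level of each tested gene in each library as log2(signal + 1) minus the gene's SPCHΔ49 mean (vertical), for 25 mitosis genes (left) and 15 sugar starvation genes (right), one line per gene, orange where the gene changed and grey where it did not. For 24 of 25 mitosis genes, all but CDKA;1, the SPCHΔ49 basl-2 libraries lie below those of SPCHΔ49. For 12 of 15 starvation genes they lie above.

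Some genes of auxin response rose. Of 20 tested 3 rose and 0 fell, and 8 lay wholly higher, against 1.02% and 11.2% of all genes. The median was 0.84, which became 0.53 without SPCHΔ49 basl-2 replicate 2 and 0.20 without that library and SPCHΔ49 replicate 3. IAA17 (AT1G04250), an Aux/IAA repressor of auxin response, had 6.03, 4.77 and 3.89 in SPCHΔ49 against 15.7, 18.9 and 16.1 in SPCHΔ49 basl-2 (1.61, SE 0.16, adjusted p = 0.0154), against 69.3 and 73.9 in WT. It rose between the overexpressors and stayed below WT in both. IAA6 had 0.556, 0.316 and 0.0675 against 1.96, 3.26 and 3.03 (1.51, adjusted p = 0.0263), and GH3.5, an enzyme that conjugates auxin, 27.3, 23.3 and 34.1 against 57.2, 60.4 and 53.7 (1.0, adjusted p = 0.0286). Of the 3, 1, 0 and 2 remained without SPCHΔ49 replicates 1, 2 and 3, and 0, 0 and 1 without SPCHΔ49 basl-2 replicates 1, 2 and 3, with adjusted p of up to 0.158.

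Calls among sugar transporters and aquaporins went in both directions. Of 14 sugar transporters tested 2 rose and 1 fell, and of 17 aquaporins 3 rose and 1 fell. Over all genes tested 1.02% rose and 1.81% fell. SWEET1 (AT1G21460), a sugar efflux carrier, had 347, 296 and 149 in SPCHΔ49 against 73.8, 68.4 and 44.8 (-2.01, SE 0.36, adjusted p = 0.0456), with 10.5 and 8.26 in WT. SWEET12 and the vacuolar exporter ERDL6 rose by smaller amounts (0.63 and 0.68, adjusted p = 0.0417 and 0.0404). Of 17 aquaporins tested PIP2;2 (0.69, adjusted p = 0.024), PIP2;3 (0.81, 0.0419) and TIP2;2 (1.31, 0.0388) rose and PIP2;5 fell (-1.35, adjusted p = 0.0154). PIP2;2 and PIP2;3 are near-identical copies that share reads, and PIP2;3 did not pass after quantile normalization (0.0544). Of these 7 genes 0, 0 and 2 remained without SPCHΔ49 replicates 1, 2 and 3, and 0, 1 and 3 without SPCHΔ49 basl-2 replicates 1, 2 and 3, with adjusted p of up to 0.218.

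No photosystem gene passed. All 37 photosystem and light-harvesting genes had a log2 fold change above 0, beside 46.4% of all genes above 0 and 53.6% below, and the median was 0.38. That median was 0.28 after rescaling and 0.01 after quantile normalization. Of 25 Calvin cycle and photorespiration genes 24 were above 0, with a median of 0.42 (0.25 after quantile normalization), and GLYK (AT1G80380), glycerate kinase of photorespiration, rose from 109, 101 and 103 to 187, 178 and 180 (0.80, SE 0.08, adjusted p = 0.0163). GLYK lost its call without any 1 library except SPCHΔ49 basl-2 replicate 3, with adjusted p between 0.0503 and 0.127. Of the other lists, abscisic acid, salicylic acid, jasmonate, glucosinolate, flavonoid, brassinosteroid, wall, clock, heat, nutrient and reference genes had 0 members that passed. Their largest differences did not pass either, such as PR2, a defence glucanase, with 14.8, 116 and 151 in SPCHΔ49 against 26.0, 0.875 and 76.3 in SPCHΔ49 basl-2 (-2.05, SE 1.53, adjusted p = 0.511). The mean log2 levels of the salicylic acid, jasmonate and glucosinolate lists ranged by 1.1 to 2.43 within a group, while the group means differed by -0.47 to 0.03. The brassinosteroid factor BES1 came close, with 61.6, 52.8 and 51.7 against 84.0, 95.9 and 79.0 (0.63, adjusted p = 0.051).

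**Figure D4:**
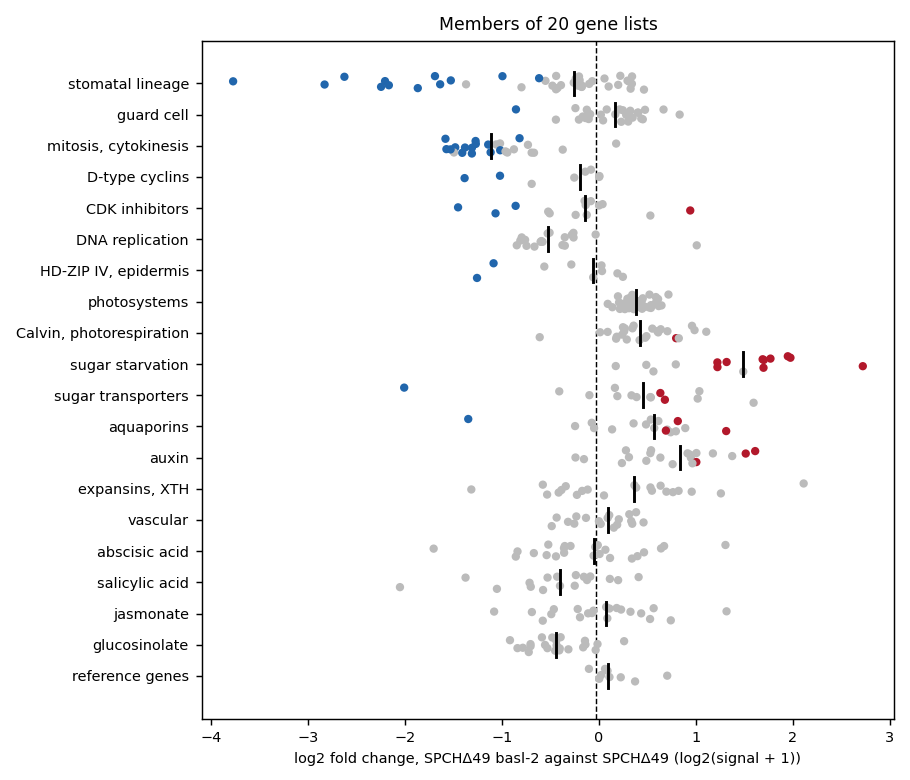
Log2 fold change (horizontal) of every tested member of 20 gene lists, one point per gene, red where it rose, blue where it fell and grey where it did not pass, with a black bar at each list's median and a dashed line at the median of all genes tested (-0.03). Stomatal lineage, mitosis and starvation lists hold most coloured points, and the defence lists hold none.

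The largest increases were led by genes with little signal in SPCHΔ49. MSRB6 (AT4G04840), a methionine sulfoxide reductase, had 2.69, 1.32 and 0.796 in SPCHΔ49 against 36.5, 39.5 and 31.7 in SPCHΔ49 basl-2, with 105 and 65.3 in WT (log2 fold change 3.89, SE 0.27, adjusted p = 0.00672). ADS1 (AT1G06080), a delta-9 desaturase, had 0.829, 0.854 and 0.861 against 14.9, 22.1 and 14.2 (3.27, SE 0.18, adjusted p = 0.00479), with 8.69 and 23.2 in WT. These genes were low in SPCHΔ49 and near or below WT in SPCHΔ49 basl-2. AT4G37220, of the WCOR413 cold acclimation family, had 9.01, 6.13 and 3.6 against 117, 135 and 37.1 and was above WT (3.62, SE 0.54, adjusted p = 0.0289). THA1 (AT1G08630), a threonine aldolase that makes glycine from threonine, had 28.5, 33.8 and 43.5 against 258, 341 and 164 (2.77, adjusted p = 0.0168). GRXC11, a glutaredoxin, RFS2, annotated as seed imbibition 2, and GDPD2, a glycerophosphodiester phosphodiesterase, rose by 2.96, 2.54 and 2.70. Of the 15 largest increases 9 had a SPCHΔ49 mean below the WT mean, and 12 had a SPCHΔ49 basl-2 mean above it.

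The largest decreases, besides SPCH, BASL, TMM, ETC3 and TCX2, included several genes with no assigned role. In 14 of the 15 the SPCHΔ49 mean lay above the WT mean. AT1G12845, uncharacterised, had 153, 172 and 166 against 18.3, 18.7 and 25.1 (-2.94, SE 0.14, adjusted p = 0.00305). IAN6 (AT1G33930), an immune-associated nucleotide-binding family gene, had 40.1, 39.4 and 27.9 against 3.2, 3.41 and 4.41 (-2.97, SE 0.18, adjusted p = 0.0063). ATMYC1 (AT4G00480), a bHLH factor of epidermal fate, had 58.7, 40.7 and 26.0 against 5.93, 6.62 and 5.74 (-2.52, SE 0.28, adjusted p = 0.0171). Groups that do not overlap were a condition for the largest changes, so their separation adds no support. AT4G29020, a glycine-rich protein gene, had 2314, 2008 and 1659 against 428, 392 and 392 (-2.29, adjusted p = 0.00672). AT3G51020, annotated as metal ion-binding, had 13.1, 18.8 and 15.3 against 0, 0.603 and 0.656 and was listed at 0 in WT (-3.58, adjusted p = 0.00672). PER69, a peroxidase, was the exception in its WT level: the SPCHΔ49 libraries had 11.9, 18.1 and 24.3, those of SPCHΔ49 basl-2 had 2.19, 1.48 and 5.53, and those of WT had 98.3 and 85.1 (-2.30, adjusted p = 0.0478). AT5G10880 and AT5G10890 overlap by 126 bases on opposite strands and fell by 2.5 and 3.1 on the log2 scale, so they may share reads.

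Of the 15 increases 0 remained without SPCHΔ49 replicate 2 and 1 without SPCHΔ49 basl-2 replicate 1. The counts were 3 and 6 without SPCHΔ49 replicates 1 and 3 and 4 and 14 without SPCHΔ49 basl-2 replicates 2 and 3. Of the 15 decreases 0 and 2 remained without the first 2 of these libraries, 12 and 13 without SPCHΔ49 replicates 1 and 3, and 10 and 15 without SPCHΔ49 basl-2 replicates 2 and 3.

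**Figure D5:**
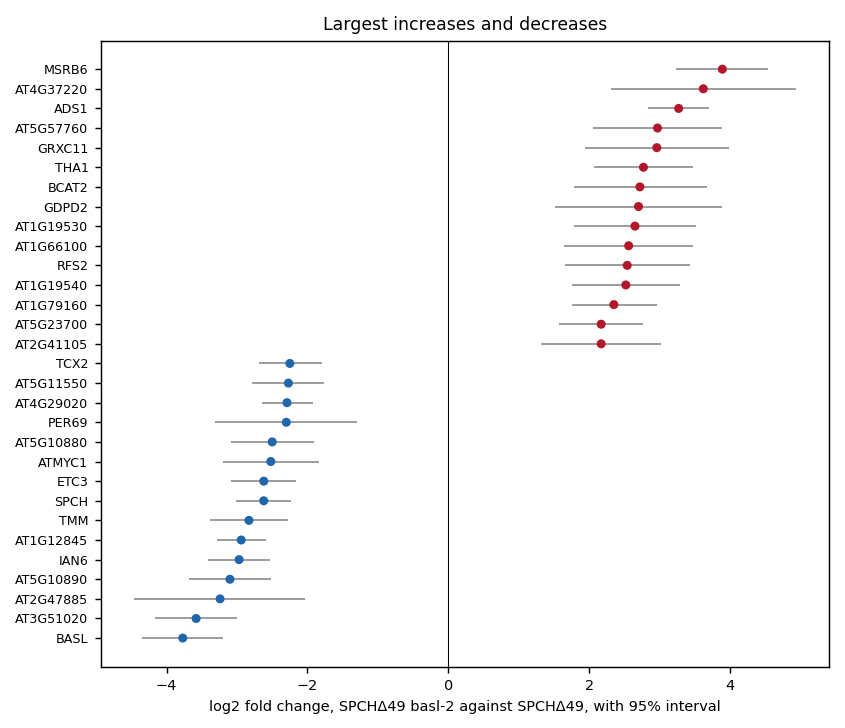
Log2 fold change (horizontal) with its 95% interval of the 15 largest increases (red) and 15 largest decreases (blue) in SPCHΔ49 basl-2 against SPCHΔ49. Increases reach 3.89 for MSRB6 and decreases reach -3.77 for BASL. No interval crosses 0, which was fixed in advance, since the genes were selected by adjusted p under 0.05 in the same limma fit.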

How the data were processed

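RNA-seq of whole seedlings gave one deposited signal value per gene and library, named TPM by the authors per the file headers. Trimmomatic 0.38, kallisto 0.44.0 and sleuth are named per the submitters' processing notes. The build, annotation and rescaling are not stated in any source used here, and totals above those of TPM show that a rescaling was made. The design assumed TPM, and its log-scale test was kept. Without counts, depth and counting error are unknown.

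R 4.3.3 and limma 3.58.1 were used to fit log2(signal + 1) of the 6 libraries, with an intensity trend, Benjamini-Hochberg adjustment and a threshold of 0.05. Genes needed a signal of 1 in at least 3 libraries, which left out 1092. A permutation of 3 against 3 libraries cannot go below 0.1 for a single gene.

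The 35 gene lists hold 609 members, of which 551 were listed and 513 tested. The members and lists were chosen with earlier results of these data known. The text names SPCH, BASL and their 4 listed neighbours on each side, the 15 largest increases and decreases with a mean of at least 5 in the higher group and no overlap, the lineage members, and, of each other list, at most 3 members per direction with the lowest adjusted p, or the largest difference where none passed. Other members appear as values beside their list. Of the identifiers 18754 matched RefSeq TAIR10.1, and 101 belong to organelle genomes. Alternatives changed the pseudocount, filter, scaling, trend, weights, block and libraries. One, leaving out a pair of libraries, was chosen after seeing the data.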

Additional observations from a re-analysis of the deposited data

How the results depend on the processing

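The libraries of all 503 changed genes do not overlap between groups, so only the changes of scaling could turn a direction. Quantile normalization and rescaling turned 0 of the 503. With WT added to the fit 1042 genes changed (405 up, 637 down). Library weights gave 13498 (6300 up, 7198 down, 780 at least 2-fold), with weights of 22.6 for SPCHΔ49 replicate 2 and 16.1 for SPCHΔ49 basl-2 replicate 1 and 0.193 to 0.274 for the others, so that fit rests on 2 libraries. Under these weights PYL8 had -0.24 and passed (adjusted p = 0.00336), against 0.00 (0.998) with equal weights. Rescaling without SPCH, organelle and abundant genes gave 515 down, with the median of all genes at -0.12 and 24.9% of changed genes up against 36.2%. With a pseudocount of 5, 146 genes changed at least 2-fold. Leaving out 1 replicate gave 0 to 504 changed genes, 0 to 222 up, 0 to 282 down and 0 to 355 at least 2-fold. Leaving out SPCHΔ49 replicate 3 and SPCHΔ49 basl-2 replicate 2 together, an alternative chosen after seeing the data, gave 40 changed genes, 16 up and 24 down, 40 of them at least 2-fold, with a BASL log2 fold change of -4.11. For SPCH the log2 fold change lay between -2.76 and -2.5 over the left-out replicates, and for BASL between -4.01 and -3.64. The causes were not tested.

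Whether replicate numbers pair the samples is not stated in the labels. Deviations from the group mean correlated by -0.181, -0.105 and 0.764 between same-numbered libraries. The deviations within a group depend on each other, so these correlations cannot decide whether the samples are paired. Not every library correlated best with its own number, as SPCHΔ49 replicate 1 did so with SPCHΔ49 basl-2 replicate 2 (0.779) and SPCHΔ49 replicate 2 with SPCHΔ49 basl-2 replicate 1 (0.336). With the replicate block 356 genes changed (168 up, 188 down, 47.2% up), 282 of them among the 503. With the depth unknown, the precision of low signals can be judged only from the replicates.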

Other observations

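Some gene families were read after their values were seen, so their counts describe these libraries and support nothing. Beside them, 1.81% of all genes tested fell and 1.02% rose, and the median over all genes tested was -0.03. Of 30 tested genes named as kinesins, motor proteins of spindle and phragmoplast among other roles, 10 fell and 0 rose, with a median of -0.60. KIN12F had 4.53, 6.07 and 6.46 in SPCHΔ49 against 1.33, 1.24 and 2.11 in SPCHΔ49 basl-2 (log2 fold change -1.39, adjusted p = 0.0243 in limma). Of these 10, 10 remained without SPCHΔ49 basl-2 replicate 3 and 0 without any other single library. KIN5B and KIN7H did not pass after quantile normalization (0.0594 and 0.069). Of 24 Aux/IAA genes 4 rose and 0 fell, IAA6, IAA7, IAA17 and IAA34. The median was 0.58, which became 0.30 without SPCHΔ49 replicate 3, 0.30 without SPCHΔ49 basl-2 replicate 2 and 0.15 without both. IAA7 had 142, 129 and 127 against 326, 484 and 297 (1.44, adjusted p = 0.024). Of the 4 rises 1, 0 and 1 remained without SPCHΔ49 replicates 1, 2 and 3, and 0, 1 and 3 without SPCHΔ49 basl-2 replicates 1, 2 and 3. Of 18 enzymes of branched-chain amino acid breakdown, which share members with the starvation list, 11 rose and 0 fell, and 3, 0 and 7 of them remained without SPCHΔ49 replicates 1, 2 and 3, and 0, 3 and 10 without SPCHΔ49 basl-2 replicates 1, 2 and 3. Of 8 enzymes that break down threonine, tyrosine, lysine and proline 4 rose, among them HPD and HGO of tyrosine breakdown, by 1.40 and 1.02. In the same order of left-out libraries 0, 0, 3, 0, 2 and 4 of these 4 remained.

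The jasmonate factor MYC2 was listed at 0 in SPCHΔ49 replicates 1 and 2 and SPCHΔ49 basl-2 replicates 1 and 2, and had 22.5 and 25.6 in the 2 replicates numbered 3, beside 8.07 and 7.57 in WT. A listed 0 can be a failed estimate, and MYC2 was not tested.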
